A study of Zea mays with 24 samples.

Results

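Leaves of the maize inbred lines Mo17 and Wf9 were compared on a pilot maize GeneChip, an Affymetrix array on which a set of short oligonucleotides, a probe set, reports each transcript sequence. Arrays titled with either line name were taken, which gave 12 of the 24 arrays of the study, 6 per line. The plants carried no transgene or treatment, and the groups differed by inbred line. Total RNA came from leaves 3 to 5, pooled from 6 to 10 greenhouse plants a sample. Growth, harvest and RNA extraction were done 3 times per line. Every RNA went onto 2 arrays, whose log2 values were averaged, so that each line had 3 biological replicates. The other lines of the study, B73 and W23, entered the fit only to share its estimate of spread, and their levels are given for orientation. Plant age is not given in the sources used here.

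Inbred maize lines are kept by repeated self-pollination, so plants of a line are genetically nearly uniform while lines differ at many loci. A maize leaf runs the C4 cycle, in which mesophyll cells fix carbon dioxide into acids that feed the Calvin cycle of bundle sheath cells. The same tissue stores benzoxazinoids, defence compounds made from indole, and moves water through aquaporins of the plasma membrane (PIP) and the vacuolar membrane (TIP). Glutathione transferases couple glutathione to toxic compounds, herbicides among them, and are a large family in maize.

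The labelled tissue was checked against marker lists. Probe sets of light harvesting and of the C4 and Calvin cycles were among the brightest, as with the chlorophyll-binding protein Cab-m7, at a signal of 11071 ± 1801 (SD, n = 3) in Mo17 and 10791 ± 1982 in Wf9. All 17 probe sets of seed storage genes were at or below the background level on all 12 arrays, as were 5 of 6 for pollen markers. Of the 3 probe sets for root markers, 1 was at background throughout, and none of the 3 lists held a difference past the test. Background was set at 16.7 signal units, which is the 99th percentile over 44 unspiked control probe sets. Median signal per array lay between 47.4 and 64.1.

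Differences between the lines were larger than differences between replicates. Log2 differences over 4428 bright probe sets had an SD of 0.11 to 0.22 between the 2 arrays of an RNA and 0.38 to 0.70 between replicates of a line. Between a Mo17 and a Wf9 replicate it was 0.83 to 1.06. The widest gap within a line, 0.70, separated Wf9 replicates 2 and 3. It stayed below the narrowest gap between the lines, 0.83.

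**Figure D1:**
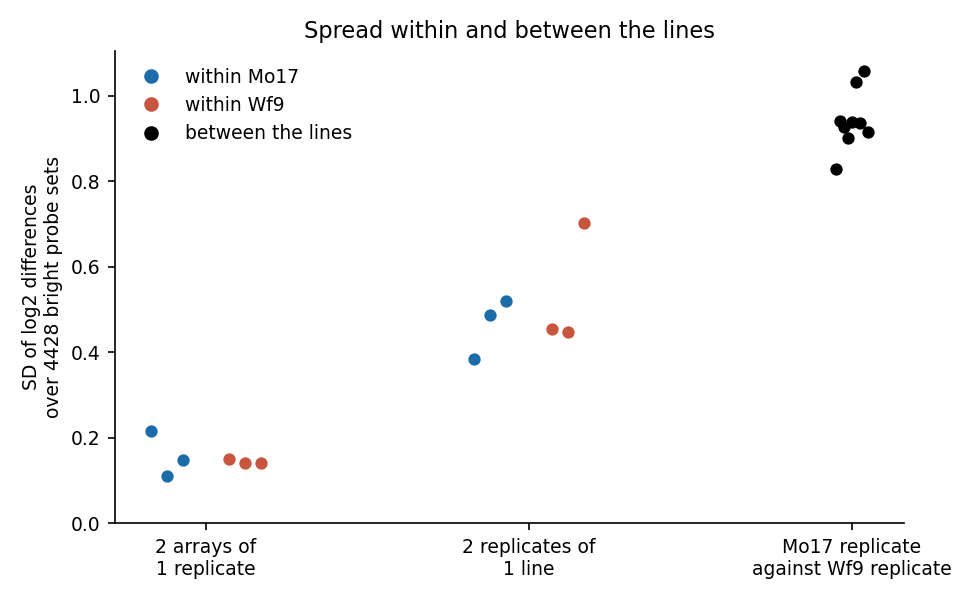
SD of log2 differences over 4428 bright probe sets (vertical axis) for the 2 arrays of a replicate, for replicate pairs within Mo17 or Wf9, and for each Mo17 replicate against each Wf9 replicate. Points are pairs, and the highest point within a line (0.70, Wf9 replicates 2 and 3) lies under all 9 points between the lines.

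The signal differed for 1361 of 8346 probe sets (16.3% of those tested) at an adjusted p under 0.05 in limma. Of these, 683 (8.18%) were higher in Mo17 and 678 (8.12%) lower. Differences of at least 2-fold on the log2(signal + 16) scale numbered 691 (8.28%), 368 higher (4.41%) and 323 lower (3.87%). The replicates of the lines did not overlap in 2696 probe sets (32.3%), among them 1355 of the 1361 called. The median log2 difference over all probe sets was 0.01. Of probe sets at least 2-fold apart, 67 were at background on all 6 arrays in Wf9 alone and 47 in Mo17 alone. In 563 of the 1361 calls, Mo17 and Wf9 lay at opposite ends of the 4 lines, an order that choosing by their difference favours. The bulk signal cannot tell fewer cells of a type from less RNA per cell.

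**Figure D2:**
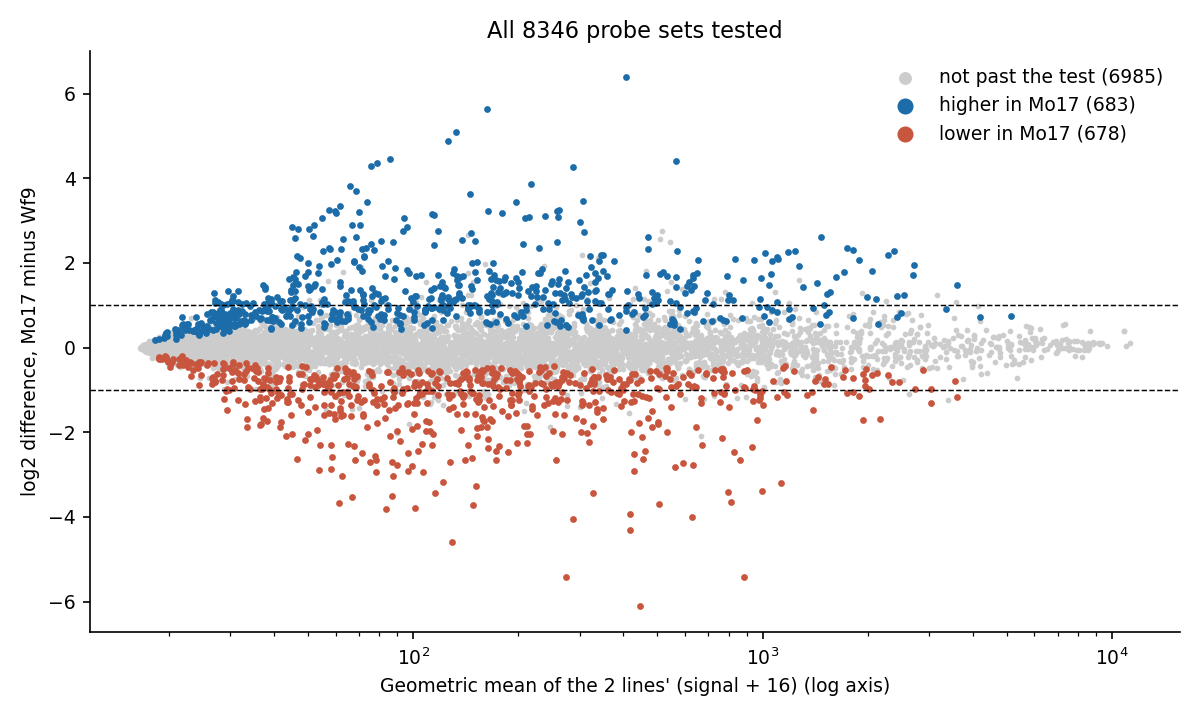
Log2 difference, Mo17 minus Wf9, of 8346 probe sets against the geometric mean of the 2 lines' signal plus 16 (log axis). The 683 higher and 678 lower calls are in colour, dashed lines mark 2-fold, and the brightest probe sets, at the right, lie near 0.

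A gene name was given for 852 of the tested probe sets. Of these, 140 (16.4%) passed the test, 77 higher and 63 lower in Mo17, from 111 genes. The 15 genes with the largest differences in each direction were taken among calls without overlapping replicates. Those higher in Mo17 are led by bx1, the cystatin cpi2 and the aquaporin ZmPIP2-3. Those lower in Mo17 are led by aba1, the aquaporin PIP1-3 and the translation factor eif7. Folds are ratios of geometric means with the background level as a floor. A fold is given as "at least" where a line was at background on all arrays, and is understated where only some of its arrays were.

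**Figure D3:**
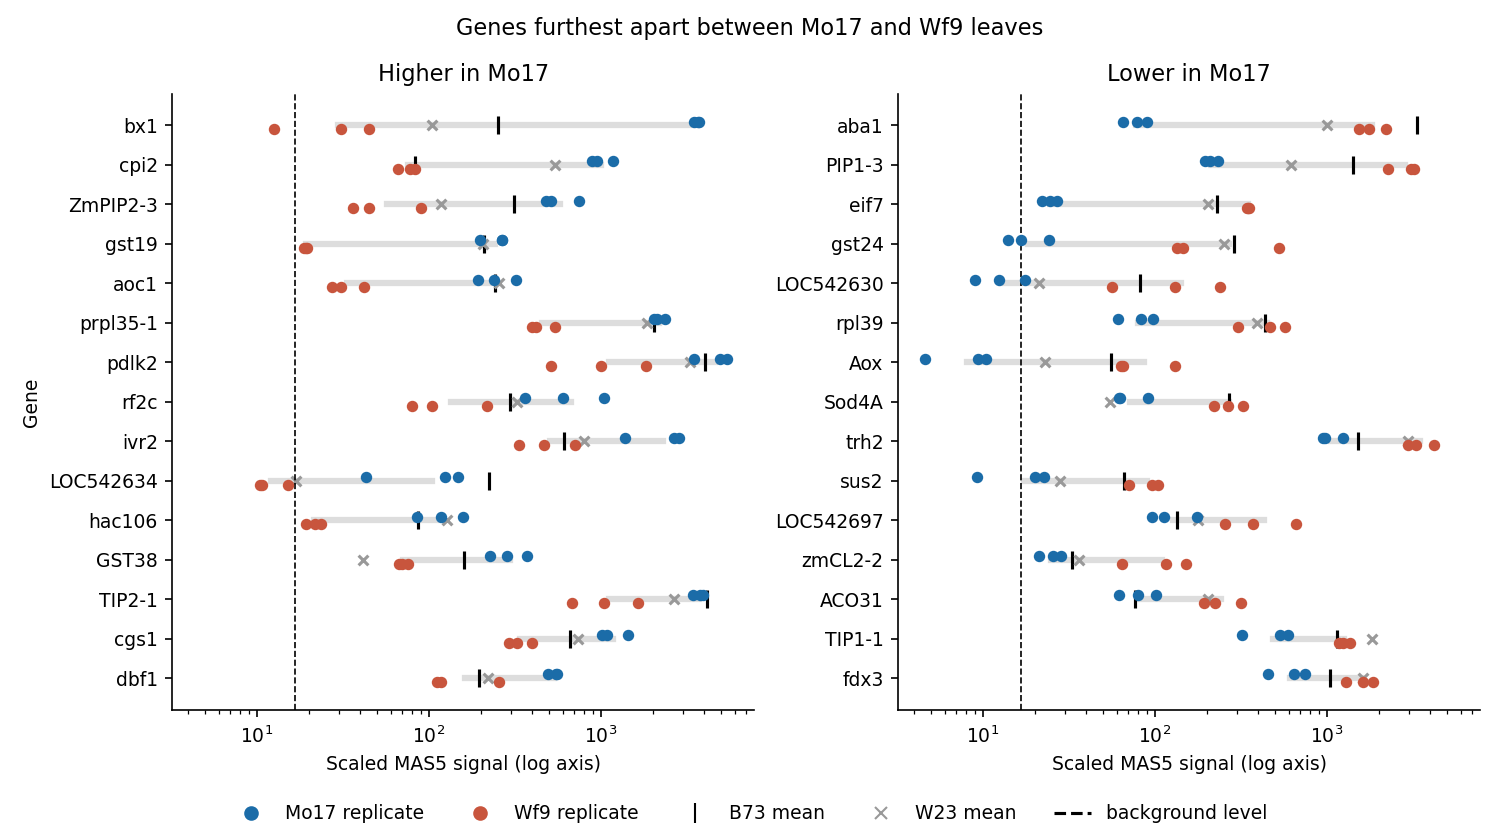
Scaled signal (log axis) of the 15 named genes furthest apart in each direction; dots are biological replicates of Mo17 (blue) and Wf9 (red), the bar and the cross are B73 and W23 means, and the dashed line is the background level of 16.7. Genes entered the plot only if their Mo17 and Wf9 replicates did not overlap, and bx1 and aba1 are the widest apart.

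The widest difference among named genes was in bx1, whose enzyme releases indole in the first committed step of benzoxazinoid synthesis. Its signal was 3660, 3734 and 3465 in the Mo17 replicates and 45.1, 12.5 and 30.9 in those of Wf9. All Mo17 replicates were far above all Wf9 replicates, 2 of whose 6 arrays were at background. Mo17 was 126.8-fold higher (log2 difference 6.39, SE 0.55, adjusted p = 7.75e-06 in limma). B73 at 251 and W23 at 104 lay between the lines. The other members of the benzoxazinoid and indole list did not pass. They include the glucosidase gene glu2, which had a signal of 339, 616 and 1073 in Mo17 and 829, 516 and 456 in Wf9, with broad overlap.

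Among pathogenesis-related and wound-induced proteins, 3 of 12 probe sets were higher in Mo17 and 1 lower (33.3% called, against 16.3% of all probe sets), with a median log2 difference of 0.44. The 3 higher ones were all of cpi2, a cystatin, that is, an inhibitor of cysteine proteases. The furthest apart gave 950, 888 and 1181 in Mo17 against 83.3, 66.3 and 77.8 in Wf9, 13.2-fold (adjusted p = 5.34e-07). The groups were well apart there. The other cpi2 probe sets had log2 differences of 1.35, 1.09 and 0.42, the last at a signal of 4428 ± 368 against 3326 ± 587 (SD, n = 3) and not past the test. Zlp, a zeamatin-like protein, was dim and lower in Mo17 (11.7, with 4 arrays at background, against 36.4 in Wf9, adjusted p = 0.024). The call was lost in 5 of 20 alternatives with an adjusted p of up to 0.101. A second Zlp probe set, at 27.6 against 76.5, had a log2 difference of −1.11 and did not pass (adjusted p = 0.122). The thaumatin-type pr5 measured 480, 103 and 299 in Mo17 and 56.8, 12.8 and 132 in Wf9. Its replicates overlapped, and its adjusted p was 0.096.

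Hormone synthesis genes moved in both directions. Of 10 probe sets for jasmonate and ethylene synthesis, 2 were higher and 3 lower in Mo17 (50.0% called, against 16.3% of all probe sets, with a median log2 difference of −0.32). Of these 5, 4 belong to aoc1, allene oxide cyclase of jasmonate synthesis. Its first sequence cluster read 320, 240 and 192 in Mo17 and 42.2, 30.7 and 27.4 in Wf9, 7.47-fold higher (adjusted p = 7.18e-06). A second cluster annotated to the same gene read 28.1, 20.3 and 28.8 in Mo17 and 51.9, 39.4 and 55.2 in Wf9, a log2 difference of −0.64 (adjusted p = 0.0137). The clusters thus ran in opposite directions, each without overlap, and aoc1 was the 1 gene with calls in both. Signal reports hybridisation, so a transcript level and a sequence difference under the probes cannot be told apart here.

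ACO31, an ACC oxidase of ethylene synthesis, measured 102, 80.3 and 62.0 in Mo17 and 192, 224 and 316 in Wf9. Wf9 was 3.00-fold higher (adjusted p = 0.00348) without overlap. The oxophytodienoate reductase gene opr5 had 254, 220 and 65.6 against 509, 448 and 378. Its groups did not overlap either, but its adjusted p was 0.0588, and 0.0456 with the replicate number as a block.

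For abscisic acid and drought response, 3 of 5 probe sets passed, 1 higher and 2 lower (60.0%, against 16.3% of all probe sets). Lower in Mo17 was aba1, also known as asr1, of the family named for abscisic acid, stress and ripening. It measured 90.3, 78.6 and 65.0 in Mo17 and 2220, 1536 and 1769 in Wf9. This was the widest named gap in that direction, with Wf9 23.6-fold higher (log2 difference −4.30, SE 0.18, adjusted p = 2.33e-08), and a second probe set gave −3.93. B73, at 3337, was above Wf9, and W23, at 1008, was between the lines. The drought-response factor dbf1, which binds the dehydration-responsive element, went the other way, with 554, 495 and 546 in Mo17 and 117, 112 and 257 in Wf9. Mo17 was 3.54-fold higher (adjusted p = 0.00699), while a second dbf1 probe set, at a log2 difference of 0.60, did not pass (adjusted p = 0.356), though it did in 2 of 20 alternatives (adjusted p down to 0.0283).

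Aquaporins differed in both directions, with 6 of 34 probe sets higher in Mo17 and 4 lower, 29.4% against 16.3% over all probe sets. Their median log2 difference was 0.10. Among plasma membrane channels, ZmPIP2-3 measured 511, 483 and 742 in Mo17 and 45.2, 36.4 and 90.0 in Wf9, 10.7-fold apart (adjusted p = 1.14e-05). PIP1-3 showed the reverse, at 233, 209 and 195 against 3104, 3207 and 2271, with Wf9 13.3-fold higher (adjusted p = 9.51e-07). Neither of these probe sets had overlapping replicates, and in both Mo17 and Wf9 were the outermost of the 4 lines.

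The probe sets of PIP1-3 did not agree in size or in direction. Another gave a log2 difference of −1.49 (adjusted p = 0.000918). The remaining one was higher in Mo17, at 2438, 1340 and 1358 against 1212, 925 and 997 in Wf9. Its log2 difference of 0.65 did not pass (adjusted p = 0.137), though its replicates did not overlap. PIP1-1, among the brightest aquaporins, had 5889, 5255 and 4892 in Mo17 and 3191, 3503 and 3073 in Wf9. Its 1.64-fold difference passed (adjusted p = 0.0375), but was lost on leaving out any of the 6 replicates and with technical array 1 alone, with an adjusted p of up to 0.134. PIP2-4 was lower in Mo17, at 252 against 543 (log2 difference −1.10).

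Vacuolar channels were also mixed. TIP2-1 measured 3928, 3775 and 3435 in Mo17 against 1045, 1635 and 677 in Wf9, a 3.53-fold excess in Mo17 (adjusted p = 0.00104), with a second probe set at 0.64 that did not pass (adjusted p = 0.2). TIP1-1 was lower in Mo17, at 533, 323 and 597 against 1371, 1246 and 1185 (Wf9 2.70-fold higher, adjusted p = 0.000481). TIP2-2 and NIP2-3 were higher in Mo17 by 1.16 and 1.26 on the log2 scale, and TIP3-1 was higher near background, at 17.3 against 8.75. The NIP type, named for nodulin 26-like proteins, also held one of the brightest aquaporins that did not pass, NIP2-2, at 5292 ± 528 in Mo17 and 5511 ± 505 in Wf9 (SD, n = 3).

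Listed glutathione transferases were mostly higher in Mo17 where they passed. The list was drawn by gene symbol or synonym, so genes named by identifier alone are not counted. Of 52 probe sets, 16 were higher and 4 lower, 38.5% called against 16.3% over all probe sets, while the list's median log2 difference was −0.02. All 4 probe sets of gst19 were higher. The furthest apart measured 266, 267 and 198 in Mo17 and 19.4, 18.9 and 19.6 in Wf9 (12.5-fold, adjusted p = 7.58e-05). A second was at background on all Wf9 arrays, at 9.73 against 137 in Mo17, at least 8.20-fold lower.

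GST38 measured 285, 374 and 228 in Mo17 and 75.2, 69.99 and 67.4 in Wf9, 4.09-fold higher (adjusted p = 4.11e-05). Both probe sets of gst10 (log2 differences 1.62 and 1.57), of GST26 (1.34 and 1.03), of gst14 (1.05 and 0.88) and of gst9 (0.76 and 0.69) were higher too. So was gst35, at background on all Wf9 arrays and at 39.7 in Mo17. GST39 had 2 probe sets past the test, at 1.06 and 1.05, and a further one at 0.45 that did not pass.

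The 4 lower calls were the probe sets of gst24 and gst17. The wider gst24 probe set measured 16.7, 24.3 and 13.95 in Mo17, around background, and 147, 134 and 531 in Wf9. Wf9 was 11.5-fold higher (adjusted p = 0.000985), and the second probe set gave a log2 difference of −2.45. The gene gst5 had 231, 151 and 512 in Mo17 and 854, 703 and 2624 in Wf9, without overlap. In both lines replicate 3 was the highest, and the log2 difference of −2.08 had an adjusted p of 0.0577, or 0.00426 with the replicate block. gst1, the brightest of the list, measured 2639 ± 321 in Mo17 and 2836 ± 671 in Wf9 (SD, n = 3) and did not pass.

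**Figure D4:**
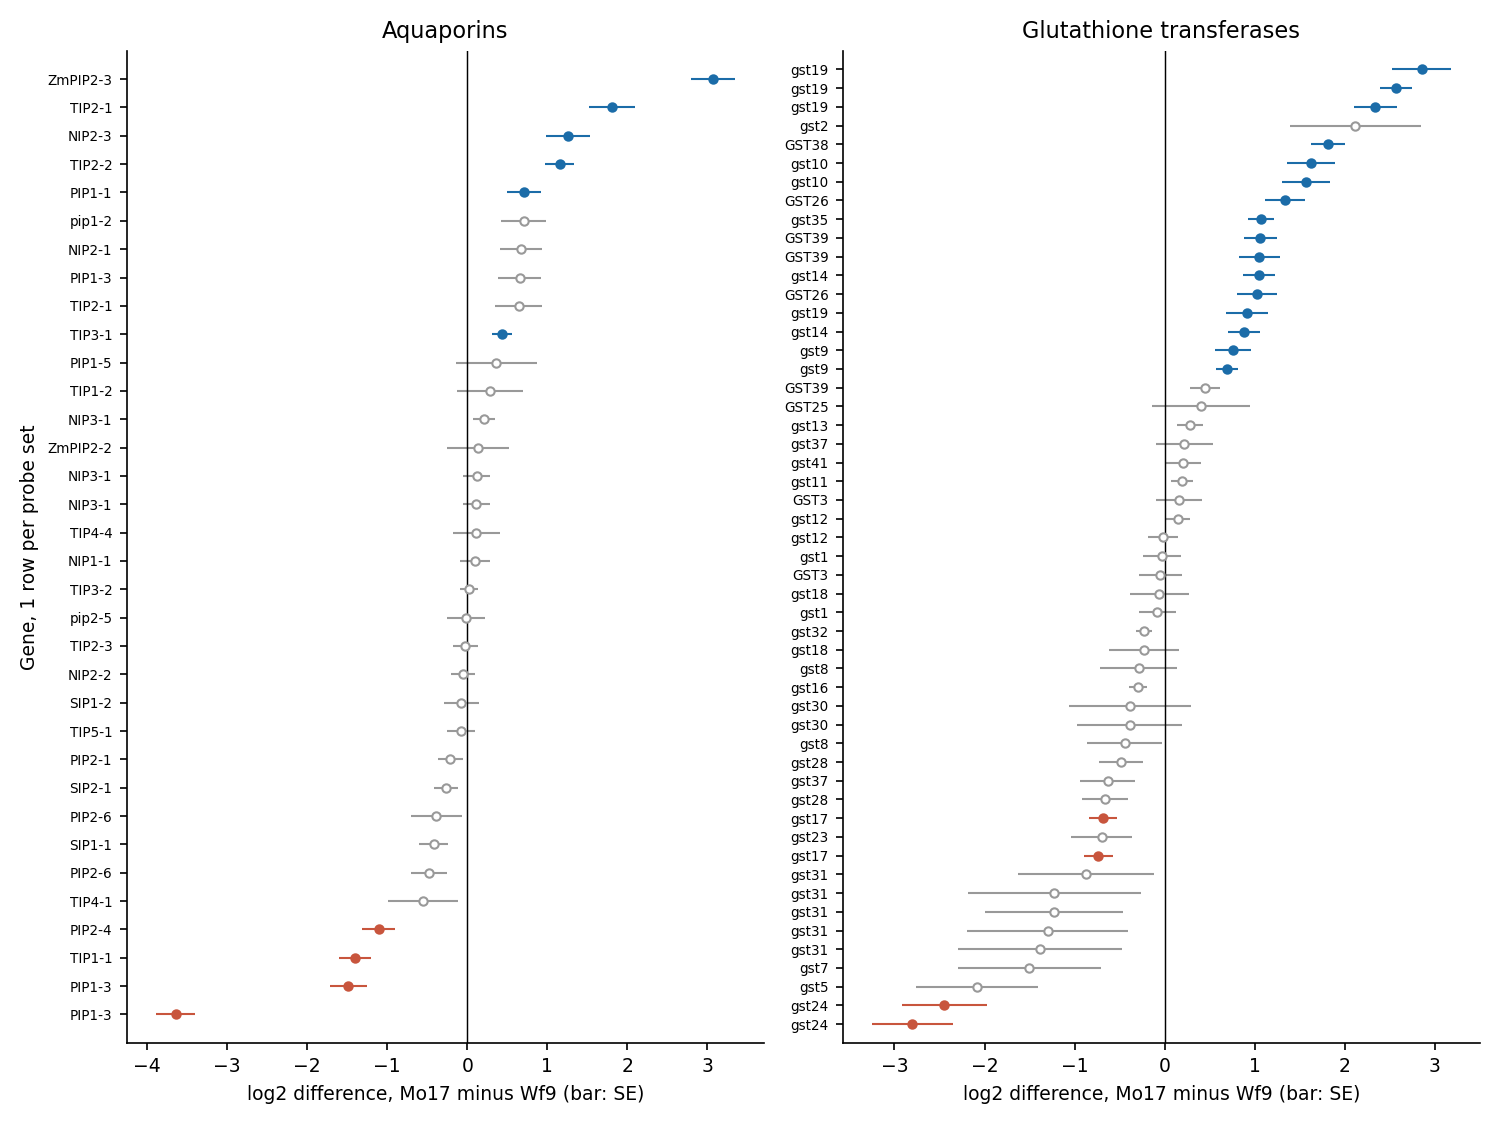
Log2 difference, Mo17 minus Wf9, of each listed aquaporin (left) and glutathione transferase (right) probe set, with its SE; filled points passed the test, blue higher and red lower in Mo17. Aquaporin calls stand at both ends, and 16 of 20 transferase calls lie to the right of 0.

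In starch and sucrose metabolism, 5 of 15 probe sets were higher in Mo17 and 1 lower (40.0% called, against 16.3% of all probe sets), with a median log2 difference of 0.11. The acid invertase gene ivr2, whose enzyme splits sucrose, measured 2838, 2658 and 1391 in Mo17 and 470, 335 and 710 in Wf9. Mo17 was 4.54-fold higher (adjusted p = 0.000908) without overlap, and a second ivr2 probe set gave 1.94 on the log2 scale. Starch branching enzyme gene sbe1 was also higher, at 109 ± 29.6 against 30.3 ± 5.15 (SD, n = 3, adjusted p = 0.000309).

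Sucrose synthase genes split. The genes sus1 (log2 difference 1.13) and sh1 (0.82) were higher in Mo17. The gene sus2 was lower, at 22.6, 20.2 and 9.20 in Mo17, partly at background, against 105, 96.2 and 70.4 in Wf9 (log2 difference −1.69, adjusted p = 0.00105). The sucrose transporter gene sut1 did not pass, at 1178 ± 176 and 1083 ± 55.7 (SD, n = 3).

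In the C4 and Calvin cycle list, 1 of 14 probe sets passed (7.14%, against 16.3% of all probe sets), the median log2 difference being 0.09. With the replicate block, under which 18.7% of all probe sets passed, 2 of the 14 did. The 1 called without the block was a malic enzyme gene, me2, at 409, 322 and 217 in Mo17 and 674, 535 and 471 in Wf9 (adjusted p = 0.0321). The me2 call was lost in 6 of 20 alternatives, with an adjusted p of up to 0.135. PPDK, the enzyme that regenerates the acceptor of the C4 cycle, measured 11636 ± 1808 and 10916 ± 2304, and the Rubisco small subunit gene rbcs1 7083 ± 407 and 6502 ± 1233 (SD, n = 3). At these probe sets both lay well within their replicate spread. Replicates did not overlap in a dim PPDK probe set (66.2 against 109, log2 difference −0.61) and in a further rbcs1 probe set (3369 against 2095, 0.66). Neither passed (adjusted p = 0.0641 and 0.573), and the remaining probe sets of both genes overlapped.

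In the light harvesting list 1 of 18 probe sets passed (5.56%, against 16.3% of all probe sets), with a median log2 difference of 0.03. This was fdx3, a ferredoxin, at 743, 454 and 645 in Mo17 and 1613, 1295 and 1858 in Wf9, 2.61-fold higher in Wf9 (adjusted p = 0.00313). Photosystem I subunit gene psaN showed near-equal levels, 9750 ± 1511 and 9630 ± 2135 (SD, n = 3). Replicate 3 was the lowest in both lines for 16 of these 18 probe sets, against 2017 of 8346 (24.2%) over all probe sets.

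Among 14 probe sets for antioxidant and thioredoxin-type enzymes, 4 were lower in Mo17 and 1 higher (35.7% called, against 16.3% of all probe sets). Their median log2 difference was −0.29. Both probe sets of trh2, an h-type thioredoxin, were lower, the wider at 1244, 977 and 956 in Mo17 against 3319, 4202 and 2967 in Wf9 (3.29-fold, adjusted p = 5.85e-05). Sod4A encodes a superoxide dismutase of the copper-zinc type and measured 91.4, 62.7 and 62.0 against 325, 221 and 267 (3.78-fold, adjusted p = 0.00466), but another Sod4A probe set had a log2 difference of 0.36 and did not pass. Aox, the alternative oxidase of the mitochondrial respiratory chain, was at background on all Mo17 arrays.

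Its Wf9 replicates were at 65.6, 63.9 and 132, at least 4.91-fold higher (adjusted p = 0.000958). The nucleoredoxin gene nrx1 was the 1 higher call, at 824, 667 and 395 in Mo17 against 263, 163 and 124 in Wf9 (log2 difference 1.69, adjusted p = 0.01).

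Among 16 probe sets for mitochondrial proteins, 2 were higher and 2 lower, Aox included (25.0% called, against 16.3% of all probe sets), with a median log2 difference of −0.07. Highest in signal on this list in Mo17 was pdlk2, annotated as a pyruvate dehydrogenase kinase, which restrains entry of pyruvate into respiration. It measured 4945, 5438 and 3461 in Mo17 and 997, 1839 and 510 in Wf9. The groups were clear of each other, with Mo17 4.64-fold higher (adjusted p = 0.00128). The other higher call was of pdh2, at a log2 difference of 1.61. An outer membrane channel gene, vdac1a, was lower in Mo17, at 165 ± 38.6 against 406 ± 34.5 (SD, n = 3, adjusted p = 0.0019). Outside this list, a cytosolic aldehyde dehydrogenase gene, rf2c, was higher in Mo17 on both of its probe sets, by 2.17 and 2.04 on the log2 scale.

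In nitrogen assimilation, 3 of 10 probe sets were higher in Mo17 and 0 lower (30.0% called, against 16.3% of all probe sets). All 3 were of glutamine synthetase genes, which supply most of the list. The median log2 difference was 0.41. Without Wf9 replicate 3, 2 were higher and 2 lower, with 13.4% of all probe sets called. Array weights gave 5 higher and 2 lower, with 28.8% of all probe sets called. The gene gln3 measured 73.2, 79.3 and 82.8 in Mo17 and 36.9, 26.4 and 34.8 in Wf9 (2.42-fold, adjusted p = 0.00082). A second gln3 probe set for the same sequence passed at a log2 difference of 0.88. Another, for a separate sequence, had 0.47 and did not pass (adjusted p = 0.153). The gene gln5 measured 1698, 1570 and 1222 against 1065, 881 and 813 (adjusted p = 0.0484), and its call was lost in 8 of 20 alternatives, with an adjusted p of up to 0.164. Neither had overlapping replicates. GLN6, the brightest member, did not pass, at 1748 ± 383 and 2533 ± 559 (SD, n = 3), nor did gln1, at 1689 ± 270 and 815.7 ± 173 (adjusted p = 0.252). The gln1 probe set did pass in 3 of 20 alternatives, among them the blocked fit of Mo17 and Wf9 alone (adjusted p = 0.00277). In that fit 5 of the 10 probe sets were called, against 22.9% of all probe sets.

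Sulfur assimilation was represented by cgs1, whose enzyme, cystathionine gamma-synthase, leads to methionine. Its furthest probe set measured 1014, 1089 and 1433 in Mo17 and 325, 291 and 396 in Wf9, 3.48-fold (adjusted p = 3.54e-05). The other cgs1 probe sets, at log2 differences of 0.45 and 0.23, did not pass.

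For ribosomal proteins and translation factors, 3 of 42 probe sets were higher in Mo17 and 4 lower (16.7% called), close to the 16.3% of all probe sets, and the median was 0.01. The cap-binding factor gene eif7, also listed as eIFiso-4E, stood out in its tight replicates. It measured 26.9, 22.1 and 24.8 in Mo17 against 352, 349 and 343 in Wf9, where it was 14.2-fold higher (adjusted p = 2.1e-07). A second eif7 probe set gave −2.65. Another lower gene was rpl39, a cytosolic ribosomal protein, at 82.8, 61.3 and 97.1 against 467, 305 and 573 (5.50-fold, adjusted p = 4.91e-05).

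Higher in Mo17 was prpl35-1, a plastid ribosomal protein, at 2040, 2127 and 2366 against 398, 418 and 542 (4.85-fold, adjusted p = 1.61e-06). B73 at 2030 and W23 at 1844 were near Mo17 for this gene. Acidic ribosomal stalk proteins rpp2b and rpp1a were higher by 0.90 and 1.20 on the log2 scale, and the translation factor eif3 had a log2 difference of −0.74. The translation factor eif5a did not pass and measured 4111 ± 35.7 and 4279 ± 405 (SD, n = 3).

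Histones and chromatin factors gave 3 higher and 5 lower calls of 46 probe sets, 17.4%, near the 16.3% of all probe sets, with a median log2 difference of −0.05. Without Mo17 replicate 2, 5 of the 46 passed, where 11.7% of all probe sets did. The histone acetyltransferase gene hac106 was higher in Mo17, at 157, 117 and 84.9 against 21.8, 19.3 and 23.6 (5.40-fold, adjusted p = 0.0014), and a second probe set gave 1.46. The methyl-CpG-binding gene mbd106 was higher by 1.01 (adjusted p = 0.00161). The histone gene his1a was lower, at 732, 571 and 568 in Mo17 against 1578, 990 and 1061 in Wf9 (log2 difference −0.92, adjusted p = 0.00694). The genes SDG123, hda113 and hxa103 were also lower, with log2 differences of −0.74, −0.61 and −0.56, as was a second his1a probe set at −0.78. Another his1a probe set, at −0.80, did not pass (adjusted p = 0.116), but did with the replicate block (0.0345).

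Of 25 probe sets for cytoskeleton genes, 2 were higher in Mo17 and 1 lower, against 16.3% of all probe sets called, with a median log2 difference of 0.36. With the replicate block, under which 18.7% of all probe sets passed, the count was 5. Both tua3 probe sets, for an alpha tubulin, were higher in Mo17, the wider at 829, 978 and 945 against 332, 361 and 409 (2.50-fold, adjusted p = 0.000229). The actin-binding profilin PRO4 was lower, at 2096, 1809 and 1623 against 3139, 3665 and 2949 (adjusted p = 0.00221). The groups did not overlap for either gene.

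Among cellulose synthases and expansins 1 of 17 passed (5.88%, against 16.3% of all probe sets), CesA-3, at 38.4 ± 5.31 in Mo17 and 91.9 ± 6.28 in Wf9 (SD, n = 3, adjusted p = 0.00138). The expansin gene expa1, whose protein loosens cell walls, instead varied between replicates, at 1510, 692 and 1644 in Mo17 and 2393, 184 and 2040 in Wf9. Its replicate 2 was the lowest in both lines. Heat shock proteins and chaperones gave 1 call of 19 probe sets (5.26%, against 16.3% of all probe sets), or 2 with the replicate block, under which 18.7% of all probe sets passed. The call was hsp70-4, at 1460, 1118 and 1182 in Mo17 against 2904, 2286 and 3149 in Wf9 (2.21-fold, adjusted p = 0.000608).

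Cytosolic glyceraldehyde-3-phosphate dehydrogenases gave 1 call of 11 probe sets (9.09%, against 16.3% of all probe sets), a gpc3 probe set higher in Mo17 at 97.9, 30.6 and 131 against 17.1, 13.9 and 42.5. Its replicates overlapped, and the other 4 gpc3 probe sets had the opposite sign, at log2 differences of −1.33, −1.04, −0.16 and −0.15, none past the test and the last pair at background on all Mo17 arrays. For the called one the adjusted p was 0.0433, and the call was lost in 8 of 20 alternatives (adjusted p of up to 0.166). With the replicate block 3 of the 11 passed, against 18.7% of all probe sets. GPC1, the brightest, did not pass, at 7198 ± 725 and 5330 ± 692 (SD, n = 3). The developmental regulators gave 2 calls of 18 (11.1%, against 16.3% of all probe sets), ZMM2 (25.2 against 10.8, background in Wf9) and m28, which was at background on all 12 arrays. With the replicate block 4 of the 18 passed, against the same 18.7% of all probe sets. No member of the wax and lignin list (3 probe sets) or of the carotenoid list (1) passed.

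**Figure D5:**
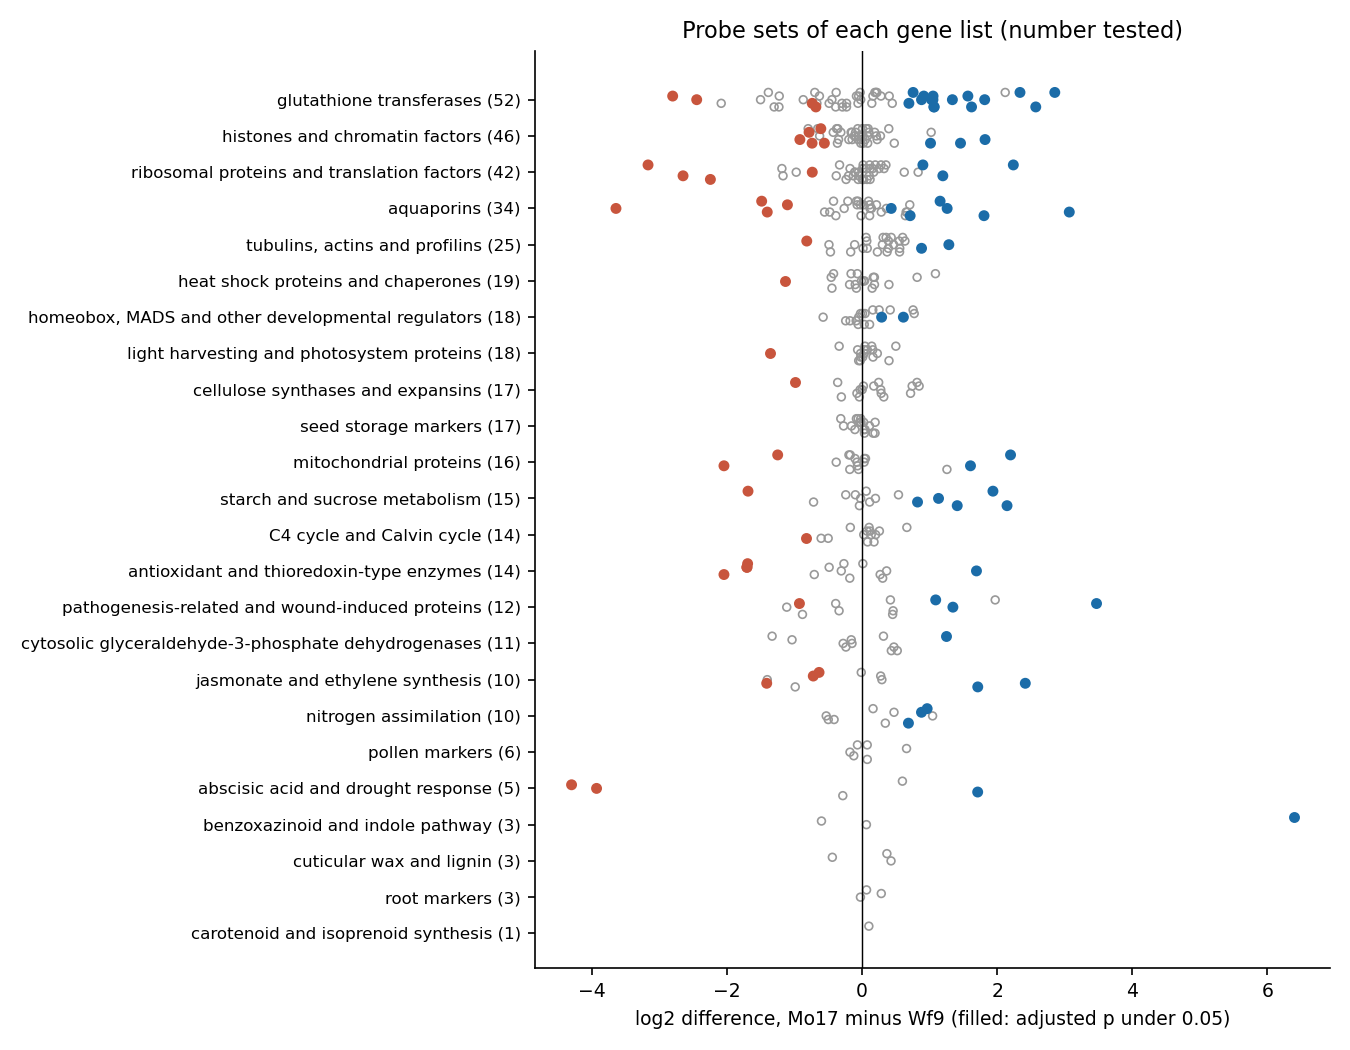
Log2 difference, Mo17 minus Wf9, of every probe set in 24 gene lists, with the number tested in brackets; filled points passed the test and open points did not. Points of photosynthesis and seed lists crowd around 0, and bx1 at 6.39 and aba1 at −4.30 are the furthest out.

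The probe sets of the leading genes were compared among themselves. Of the genes in the plot of leading genes, 16 had further probe sets, 24 in number. Of these, 20 had the same sign and 17 also passed the test, against 16.3% of all probe sets. The leading genes were picked for large differences. Of all 42 called genes with several probe sets, 17 had every probe set called. In 9 of the 15 leading higher genes and 9 of the 15 leading lower ones, Mo17 and Wf9 were the outermost of the 4 lines. Choosing genes by their difference between these lines favours that order. Among all 691 calls at least 2-fold apart it held for 303. Of all the leading genes, LOC542634, LOC542630 and LOC542697 are named by identifier alone, and none of these is counted on a gene list. LOC542634, at 124, 43.0 and 147 in Mo17 and at background on all Wf9 arrays, lost its call in 6 of 20 alternatives (adjusted p of up to 0.122). LOC542630 averaged 13.0 ± 4.30 (SD, n = 3) in Mo17, with 4 of 6 arrays at background, and 143 ± 92.8 in Wf9. Wf9 was 7.12-fold higher with Mo17 floored (adjusted p = 0.0127), and leaving out Wf9 replicate 3 ended the call (adjusted p = 0.0523). A second probe set of LOC542630 also passed, at a log2 difference of −2.30 (adjusted p = 0.00858), with all its Mo17 arrays at background.

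Probe sets without a gene name made up 1221 of the 1361 calls. They are also the bulk of the array, where 852 of 8346 tested probe sets had a name. Zm1Affx.165.1.A1_at measured 1172, 1119 and 1075 in Mo17 and was at background on all Wf9 arrays, at least 67.1-fold apart. Zm3.865.1.A1_at likewise measured 830, 789 and 647 in Mo17 with all Wf9 arrays at background, at least 45.0-fold apart. In the other direction, Zm3.1495.1.A1_s_at measured 45.8, 33.4 and 32.8 in Mo17 and 2801, 4507 and 3803 in Wf9 (98.5-fold higher in Wf9). Zm3.880.1.A1_at measured 30.6, 23.8 and 22.5 against 1843, 2273 and 1270 (68.8-fold). These are the widest unnamed differences in each direction, with adjusted p from 1.18e-08 to 3.96e-08.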

How the data were processed

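The authors deposited 1 table of linear intensities (MAS5 signal from GCOS, per the submitters' processing notes) for 8475 probe sets on 24 arrays. Software version and scaling target were not given in the sources used here. Its 213 exact zeros, all on a B73 array, were treated as missing, each array was rescaled to 1 trimmed mean (2% cut from each end), and 129 control probe sets were left out. Values became log2(signal + 16), which understates differences of dim probe sets, and technical arrays were averaged in pairs. The 12 biological replicates of 4 lines were fitted with line as the only term in limma 3.58.1 (R 4.3.3, eBayes with trend), with Benjamini-Hochberg adjustment over 8346 probe sets, a threshold of 0.05 and no filter on dim probe sets. The fit was checked on simulated data. The number of arrays limits the precision.

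Printed means and SDs refer to linear signal, over 3 replicates. Bright means over 3 times the background level in the 2 lines. Same-numbered replicates deviated together from their line means, with correlations of 0.29, 0.58 and 0.61 over 4428 bright probe sets. Other pairs gave −0.62 to 0.07. Deviations cancel out over the replicates of a line, so the values of other pairs are not independent of the same-numbered ones. The replicate number, which covers growth, harvest and RNA extraction alike, was also fitted as a block. Alternatives changed the pseudocount, scaling, dim filter, samples, weights, trend, technical array and replicates.

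Gene names come from the platform annotation, with 838 of 862 named probe sets matched to the gene table of Zm-B73-REFERENCE-NAM-5.0. No probe set had several symbols, and 7613 had no gene in the table used here. A suffix for shared probes was carried by 1447 tested probe sets, those of cpi2, gpc3, Zlp and Zm3.1495.1.A1_s_at above included. The naming rule took 1 probe set per gene: the 15 furthest apart in each direction among calls without overlap, per list the 3 smallest p among calls and the 2 highest signals, and 2 unnamed probe sets per direction. Other members given as examples, pr5 and the further calls on the lists among them, were chosen after their values were seen. Members and lists were chosen with earlier results of these data known. All lists were drawn by gene symbol or synonym, so family members named by identifier alone are missing from their counts. The anthocyanin list had 0 members. Without a role given here, LOC542697 and zmCL2-2 have their values only in the plot of leading genes.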

Additional observations from a re-analysis of the deposited data

How the results depend on the processing

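Over 20 alternatives, no named call reversed, and 42 of 51 named calls held in each of them. The 9 that were lost at least once are m28, gln5, gpc3, PIP1-1, LOC542634, me2, Zlp, LOC542630 and ZMM2, the last with technical array 1 alone (adjusted p = 0.0941). The m28 call was lost in 9 of 19. The count of 1361 calls lay between 978 and 1117 on leaving out a replicate, and that of calls at least 2-fold apart between 592 and 665 against 691. Array weights, whose estimate stopped short of convergence, gave 2406 calls, 1154 higher and 1252 lower in Mo17. A pseudocount of 64 gave 420 calls at least 2-fold apart, which follows from its shrinking of dim differences. A pseudocount of 1 gave 986, so this count depends on the pseudocount. A replicate block gave 1563 calls (18.7% of probe sets) in the fit of 4 lines. It gave 1913 (22.9%) with Mo17 and Wf9 alone, a fit added after the data were seen. In the fit of 4 lines the block changed the call of 6 named probe sets, all gained: opr5, gst5 and his1a above, ts2 (adjusted p = 0.0106), pls1 (0.0127), which takes the pollen list from 0 to 1 call, and PRO5 (0.0385). It changed no other named call. The fit of the 2 lines alone also gained gln1, a second dbf1 probe set and hon101 (adjusted p = 0.0207) and lost m28 (0.0631). Of the lists, those whose count it moved over 1.5 times are given above with that count. Dim probe sets limit the comparison: 2206 were at background on all 12 arrays, with 60 calls among them.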

Other observations

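Of the 852 named probe sets, 140 were called (16.4%, against 16.3% of all probe sets). The gene lists held 406 of the 852 and 85 of these calls. The other 55 calls belonged to no gene list, 26 higher and 29 lower in Mo17. Those given here were chosen after their values were seen. The photosynthesis gene pgr5, which acts in cyclic electron flow around photosystem I, measured 4288, 3822 and 3514 in Mo17 and 1702, 1791 and 1430 in Wf9 (adjusted p = 0.000244 in limma). The groups did not overlap. Lower in Mo17 was see2b, a legumain-type protease gene, which measured 2423, 2639 and 2063 in Mo17 and 5647, 6521 and 4144 in Wf9 (adjusted p = 0.00164). The cysteine protease gene ccp2 measured 1439, 1431 and 1365 against 2614, 2990 and 2455 (adjusted p = 0.0265). Both were lower in all Mo17 replicates than in any Wf9 replicate. The ferritin gene fer2, whose protein stores iron, was higher in Mo17 by 1.15 on the log2 scale, and the phosphatase gene PP2C had a log2 difference of −1.09.

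Some gene groups shared an order of replicates in both lines. Replicate 3 was the highest in both lines for 28 of 42 probe sets of ribosomal proteins and translation factors and for 15 of 19 of heat shock proteins and chaperones, against 1423 of 8346 over all probe sets. It was the lowest in both lines for 16 of 18 light harvesting probe sets. No test was run on these counts, and probe sets of a list share their RNA samples.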
